A study of Homo sapiens with 4 samples.

Results

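The 6 keratin genes studied here (KRT7, KRT8, KRT10, KRT18, KRT19 and KRT80) and the vimentin gene VIM were followed through an NSUN2 immunoprecipitation experiment in PANC-1 cells. They are 7 of the 24483 genes in the deposited expression table, taken by symbol, and their entries in the deposited peak lists were taken with them. PANC-1 is an established line derived from a human pancreatic ductal adenocarcinoma, wild-type per the labels and cultured here with 10% fetal bovine serum. The 4 groups were the lactate IP, the lactate input, the vehicle IP and the vehicle input. Lactate cells had received 30 mM sodium lactate for 24 h and vehicle cells water for the same time. IP RNA was recovered over 4 h with an antibody against NSUN2, an enzyme that methylates cytosines in RNA, and input RNA was set aside before that step. Each group was 1 library, all from this 1 cell line, and no library made with a control antibody was analysed here. Differences between groups therefore have no replicate error, no p-value is given, and the intervals below are 95% intervals that cover counting error only.

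Keratins and vimentin are intermediate filament proteins, the flexible fibres of the cytoskeleton. Keratin filaments are built from pairs of 1 type I and 1 type II protein, and are tied to desmosomes in epithelial cells. KRT8 (type II) and KRT18 (type I) form the basic pair of simple epithelia, and pancreatic ducts also carry KRT7 (type II) and KRT19 (type I). KRT10 is a type I keratin best known from the upper layers of the epidermis, and KRT80 is a type II keratin found near desmosomes of differentiating epithelial cells. Vimentin is a type III protein that forms its own filaments in mesenchymal cells and in many cultured carcinoma lines.

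The recovered library totals were 15189967 reads in the lactate IP, 11175432 in the lactate input, 13620414 in the vehicle IP and 17626197 in the vehicle input. Reads of nuclear genes made up 13.9% of the lactate IP, 20.9% of the lactate input, 30.3% of the vehicle IP and 31.3% of the vehicle input, and most of the other reads were mitochondrial. The deposited values are FPKM, which scale a gene's fragments by its length and by all fragments of the library. Other things equal, a library with more mitochondrial RNA has lower FPKM at every nuclear gene. For this reason each ratio is given beside the median over all genes of the same comparison. Of 9 ductal markers, 6 reached an FPKM of 1 in at least 1 library, and their summed FPKM ran from 70.2 to 389 over the libraries. This list includes KRT7, KRT8, KRT18 and KRT19, which are themselves studied here, so it is not independent of them. KRT18 alone gave 45.5 of the 70.2 FPKM in the lactate input and 292 of the 389 in the vehicle IP. KRT7 stayed below 1 FPKM and the epithelial cadherin gene CDH1 below 0.122. None of 9 markers of stratified squamous epithelium, 4 of endothelium, 5 of immune cells or 5 of acinar and islet cells reached 1 FPKM. Of 6 fibroblast markers COL1A1 and COL3A1 did, with a summed level of the list between 1.78 and 3.06 FPKM, and MAP2 did among 6 markers of neurons and Schwann cells.

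VIM and KRT18 were the most abundant of the 7 messages per length, and their order was opposite in IP and input. VIM (chr10:17228241-17237593, GRCh38) had 50.2 FPKM in the lactate IP, 176 in the lactate input, 140 in the vehicle IP and 237 in the vehicle input. KRT18 (chr12:52948855-52952906) had 93.5 FPKM in the lactate IP, 45.5 in the lactate input, 292 in the vehicle IP and 116 in the vehicle input. KRT18 thus stood above VIM in both IP libraries and below it in both inputs.

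KRT8 (chr12:52897191-52949860), the partner of KRT18, had 27.3 FPKM in the lactate IP, 12.0 in the lactate input, 74.8 in the vehicle IP and 28.9 in the vehicle input. KRT19 (chr17:41523617-41528308) had 4.09 FPKM in the lactate IP, 1.61 in the lactate input, 11.3 in the vehicle IP and 3.08 in the vehicle input. KRT80 (chr12:52168996-52192014) had 8.30 FPKM in the lactate IP, 2.95 in the lactate input, 24.3 in the vehicle IP and 8.06 in the vehicle input. All 3 were highest in the vehicle IP and lowest in the lactate input, as was KRT18. KRT10 (chr17:40818117-40822614) had 7.49 FPKM in the lactate IP, 8.07 in the lactate input, 55.8 in the vehicle IP and 21.0 in the vehicle input. It was also highest in the vehicle IP, but its lactate IP was its lowest library. KRT7 (chr12:52233243-52255853) had 0.362 FPKM in the lactate IP, 0.0671 in the lactate input, 0.808 in the vehicle IP and 0.369 in the vehicle input. These KRT7 values rest on 22, 3, 44 and 26 reads in that order, and KRT7 did not enter any count of genes with an FPKM of at least 1.

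**Figure D1:**
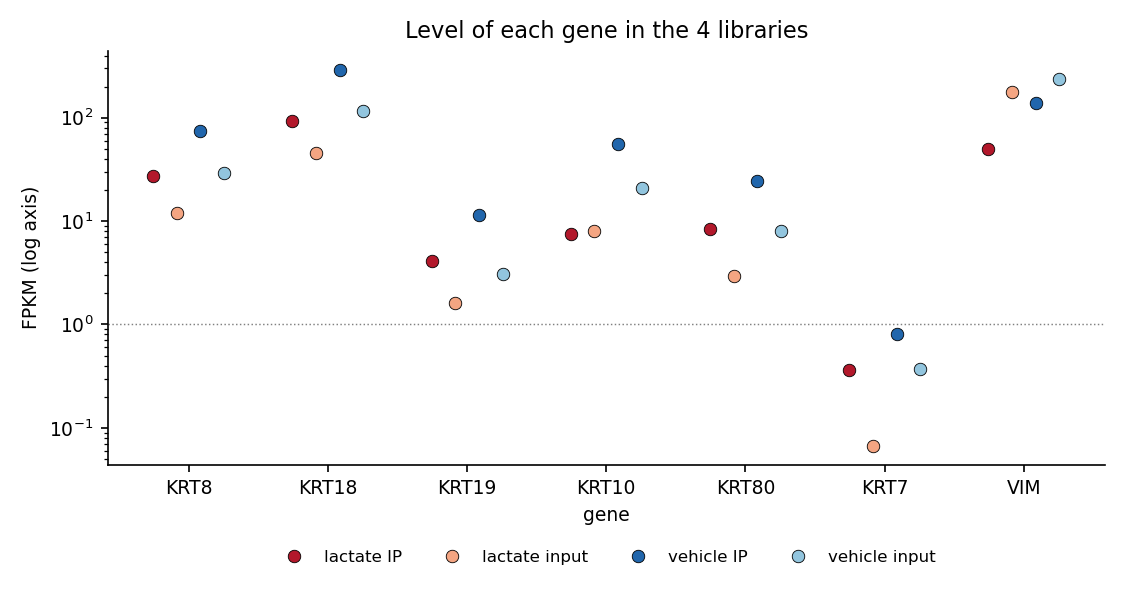
Level of each gene in FPKM (log axis) in the lactate IP, lactate input, vehicle IP and vehicle input, 1 point per library, with a dotted line at 1 FPKM. VIM has its lowest point in the lactate IP (50.2) and its highest in the vehicle input (237), while KRT8, KRT18, KRT19 and KRT80 are highest in the vehicle IP.

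In the inputs, VIM ranked first of the 7, followed by KRT18, KRT8, KRT10, KRT80, KRT19 and KRT7. The vehicle IP kept this order except for KRT18 ahead of VIM. In the lactate IP, KRT80 also stood ahead of KRT10, but by no more than counting error, since their levels relative to KRT18 were 0.0887 (0.0783 to 0.10) and 0.0801 (0.0636 to 0.0996). The other neighbours in each order were apart by more than their counting intervals. Among genes of at least 1 FPKM, KRT18 lay at the 99.3rd percentile of the lactate IP, the 96.5th of the lactate input, the 99.7th of the vehicle IP and the 98.1st of the vehicle input. KRT19 lay at the 70.3rd, 24.0th, 84.1st and 47.5th percentiles of the same libraries in that order, so its place between IP and input varied most among the 6 members measured.

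Several of these genes share sequence or position with others, and the sources used here do not say how reads matching several genes, or reads of either strand, were counted. KRT8 has 12 processed pseudogenes in the table and KRT18 has 33. The KRT8 pseudogenes together held reads equal to 3.08% to 5.43% of those of KRT8 over the 4 libraries, and those of KRT18 1.75% to 2.88% of those of KRT18. The highest were KRT8P3, at 1.85 to 5.52 FPKM, and KRT18P10, at 0.818 to 5.08 FPKM. No pseudogene of KRT7, KRT10, KRT19, KRT80 or VIM was in the table under its name. KRT8 and KRT18 lie head to head on opposite strands of chromosome 12 and their annotated spans overlap, and KRT10 and VIM have the antisense genes KRT10-AS1 (0.351 to 0.960 FPKM) and VIM-AS1 (0 to 0.553 FPKM). Adding the pseudogene reads to KRT8 and KRT18 turned no direction reported below.

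The first comparison asks how the messages themselves differed between lactate and vehicle cells, before any immunoprecipitation. KRT8, KRT10, KRT18 and KRT80 were lower in the lactate input than in the vehicle input by more than 2-fold, while VIM was close to the middle of all genes. On the log2 scale of FPKM + 1, the lactate input over the vehicle input gave −1.34 for KRT18, −1.28 for KRT10, and −1.20 for both KRT8 and KRT80. The median of all 6766 genes with an FPKM of at least 1 in either input was −0.43. The 4 keratins lay between the 2.0th and 3.15th percentiles of those genes. KRT19 gave −0.65, VIM −0.42 and KRT7 −0.36. VIM was at the 51.1st percentile, and KRT19 at the 25.3rd.

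Past 2-fold in the lactate input were 0 of the 6 measured members upward and 4 downward, against 1.76% upward and 6.46% downward over all genes. After the median was subtracted, 0 of the 6 were 2-fold away in either direction, against 181 genes higher and 92 lower over all genes. As a group, the 7 genes had a median of −1.20. Ratios without a pseudocount, relative to the median gene, were −0.76 (−0.84 to −0.68) for KRT18, −0.68 (−0.79 to −0.57) for KRT8, −0.79 (−1.20 to −0.39) for KRT10 and −0.86 (−1.25 to −0.48) for KRT80. These 4 intervals lay below 0. KRT19 gave −0.35 (−0.89 to 0.17), an interval that holds the median gene. VIM gave 0.17 (0.13 to 0.20), slightly above the median gene. Its ratio as deposited (−0.42) turned to 0.17 with median ratio scaling and 0.15 with equal nuclear totals. KRT7 gave −1.87 (−4.23 to −0.16), from 3 reads against 26. In such bulk RNA, fewer cells with a message and less of it per cell cannot be told apart.

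Ratios of 2 genes within a library do not depend on the scaling between libraries. The KRT18 to VIM ratio of FPKM was 0.258 in the lactate input and 0.492 in the vehicle input, a quotient of 0.525 (0.494 to 0.557). The same quotient was 0.556 (0.515 to 0.600) for KRT8, 0.515 (0.393 to 0.677) for KRT10, 0.492 (0.380 to 0.636) for KRT80 and 0.70 (0.494 to 0.993) for KRT19. All 5 keratins were thus lower relative to vimentin in the lactate input, by more than counting error. Among the keratins the proportions were closer. KRT8 to KRT18 was 0.263 in the lactate input and 0.248 in the vehicle input (quotient 1.06, 0.967 to 1.16), and the quotients of KRT10, KRT80 and KRT19 over KRT18 were 0.982, 0.937 and 1.33, each with an interval that holds 1.

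The RefSeq table held promoter windows for 3 of the 7 genes, KRT8, KRT10 and VIM. Those of KRT10, a keratin with lower input level in lactate cells, and of VIM, which stayed near the median gene, are shown. Both are RefSeq sequences on GRCh38.p14, 300 bases from 250 before to 50 after the gene's start, written 5′ to 3′ on the gene's strand. KRT10 is at chr17:40822565-40822864 on the minus strand and VIM at chr10:17227991-17228290 on the plus strand. Capitals mark the motif TATAAA, a form of the TATA box, which was searched on both strands.
KRT10: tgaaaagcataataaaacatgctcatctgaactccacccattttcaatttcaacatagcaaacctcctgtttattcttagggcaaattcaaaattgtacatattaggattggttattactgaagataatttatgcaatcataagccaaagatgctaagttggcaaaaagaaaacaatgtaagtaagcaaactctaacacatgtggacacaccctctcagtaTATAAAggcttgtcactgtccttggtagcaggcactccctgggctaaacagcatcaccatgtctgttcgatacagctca
VIM: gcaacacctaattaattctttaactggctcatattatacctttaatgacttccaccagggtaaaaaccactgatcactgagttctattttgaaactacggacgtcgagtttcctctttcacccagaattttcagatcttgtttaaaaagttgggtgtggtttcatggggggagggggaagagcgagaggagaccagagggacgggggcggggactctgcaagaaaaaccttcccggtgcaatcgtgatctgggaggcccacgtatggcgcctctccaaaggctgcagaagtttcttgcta
The KRT10 window holds 1 match, which begins 29 bases before the gene's start, and the VIM window holds 0. The window listed for KRT8, which was also lower in the lactate input, holds 0 as well. That window lies at chr12:52926420-52926719, inside the KRT8 span given above and away from both of its ends. The 0 therefore does not describe the start of the KRT8 gene as annotated here. Of 35116 such windows in the RefSeq table, 11.5% hold the motif. A match describes the letters and is not a measured site, and the libraries here measured RNA, not promoters.

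The second comparison asks which of the 7 messages were recovered with NSUN2 in vehicle cells. The measured keratins were all higher in the IP than in the input, whereas VIM was lower. On the log2 scale of FPKM + 1, the vehicle IP over the vehicle input gave 1.60 for KRT19, 1.48 for KRT80, 1.37 for KRT10, 1.34 for KRT8 and 1.32 for KRT18. VIM gave −0.76 and KRT7 0.40. The median of 9099 genes was 0.44, so the 5 keratins stood at the 84.4th to 91.0th percentiles and VIM at the 19.7th.

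Past 2-fold in the vehicle IP were 5 of the 6 measured members upward and 0 downward, against 27.6% upward and 15.3% downward over all genes. After the median was subtracted, KRT19 (1.16) and KRT80 (1.04) were at least 2-fold higher and VIM (−1.20) at least 2-fold lower. Over all genes, this subtraction left 1124 higher and 2172 lower, in place of 2509 and 1392. For the 7 genes the median was 1.34. Without a pseudocount and relative to the median gene, KRT18 gave 0.71 (0.67 to 0.75), KRT8 0.75 (0.70 to 0.81), KRT10 0.79 (0.58 to 1.01), KRT80 0.97 (0.78 to 1.17) and KRT19 1.26 (0.97 to 1.56). VIM gave −1.38 (−1.41 to −1.35). KRT7 gave 0.51 (−0.22 to 1.27), which cannot be placed on either side of the median gene at this depth.

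The third comparison repeats this in lactate cells. The keratins other than KRT10 were again higher in the IP, VIM was lower by more than 3-fold, and KRT10 was level with the median gene. On the log2 scale of FPKM + 1, the lactate IP over the lactate input gave 1.23 for KRT80, 1.12 for KRT8, 1.02 for KRT18 and 0.96 for KRT19. KRT10 gave −0.10, VIM −1.79 and KRT7 0.35. The median of 7170 genes was −0.10, and the 4 higher keratins lay at the 82.9th to 91.2nd percentiles, KRT10 at the 50th and VIM at the 8.23rd.

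Past 2-fold in the lactate IP were 3 of the 6 measured members upward and 1 downward, against 16.0% upward and 23.3% downward over all genes. After the median was subtracted, KRT80, KRT8, KRT18 and KRT19 were at least 2-fold higher (1.33, 1.22, 1.12 and 1.06) and VIM at least 2-fold lower (−1.70). Over all genes, that gave 1381 higher and 1472 lower, in place of 1145 and 1673. The 7 genes had a median of 0.96. Without a pseudocount and relative to the median gene, KRT8 gave 1.36 (1.25 to 1.47), KRT18 1.21 (1.12 to 1.29), KRT80 1.66 (1.28 to 2.06) and KRT19 1.52 (1.01 to 2.05). KRT10 gave 0.06 (−0.42 to 0.56) and VIM −1.64 (−1.70 to −1.59). KRT7 gave 2.60 (0.87 to 4.99) from 22 reads in the IP and 3 in the input.

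**Figure D2:**
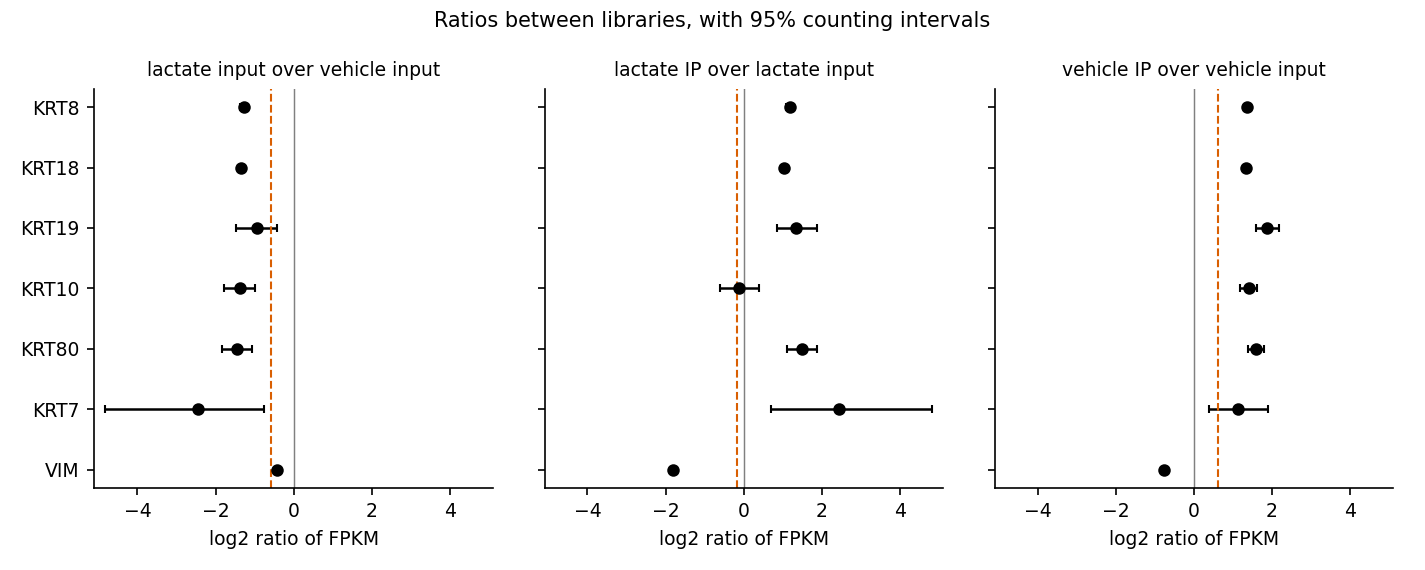
Log2 ratio of FPKM without a pseudocount for each gene in 3 comparisons, with 95% counting intervals (some narrower than the point), a grey line at 0 and a dashed line at the median of all genes. KRT10 lies on the median line in lactate cells (relative value 0.06) and right of it in vehicle cells (0.79), and VIM lies left of the line in both.

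The ratio of keratin to vimentin message separates IP from input in the same library pair. KRT18 to VIM was 1.86 in the lactate IP and 0.258 in the lactate input, a quotient of 7.21 (6.74 to 7.73). In vehicle cells it was 2.09 in the IP and 0.492 in the input, a quotient of 4.26 (4.10 to 4.43). KRT8 to VIM was 0.543 in the lactate IP and 0.0679 in the lactate input, against 0.536 in the vehicle IP and 0.122 in the vehicle input. The sum of the 6 keratins was 2.81 times VIM in the lactate IP and 0.398 times VIM in the lactate input, against 3.29 times in the vehicle IP and 0.751 times in the vehicle input. KRT8 to KRT18 was 0.292 in the lactate IP, 0.263 in the lactate input, 0.256 in the vehicle IP and 0.248 in the vehicle input. The lactate IP was above the lactate input by a quotient of 1.11 (1.01 to 1.22) and above the vehicle IP by 1.14 (1.08 to 1.21), small differences that exceed counting error.

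The change of enrichment between the treatments differed among the genes. The quotient of KRT8 to VIM, IP over input, was 8.0 (7.36 to 8.69) in lactate cells and 4.39 (4.19 to 4.60) in vehicle cells, 1.82 times as large (1.66 to 2.0). For KRT18 the lactate value was 1.69 times the vehicle value (1.57 to 1.83), and for KRT80 1.93 times (1.44 to 2.59). Between the IP libraries themselves KRT8 to VIM had a quotient of 1.01 (0.958 to 1.07), lactate over vehicle, and between the inputs 0.556 (0.515 to 0.600). For KRT19 the factor was 1.43 (0.958 to 2.14) and for KRT10 0.724 (0.505 to 1.04), and both intervals hold 1. All of these quotients use the same 4 libraries.

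**Figure D3:**
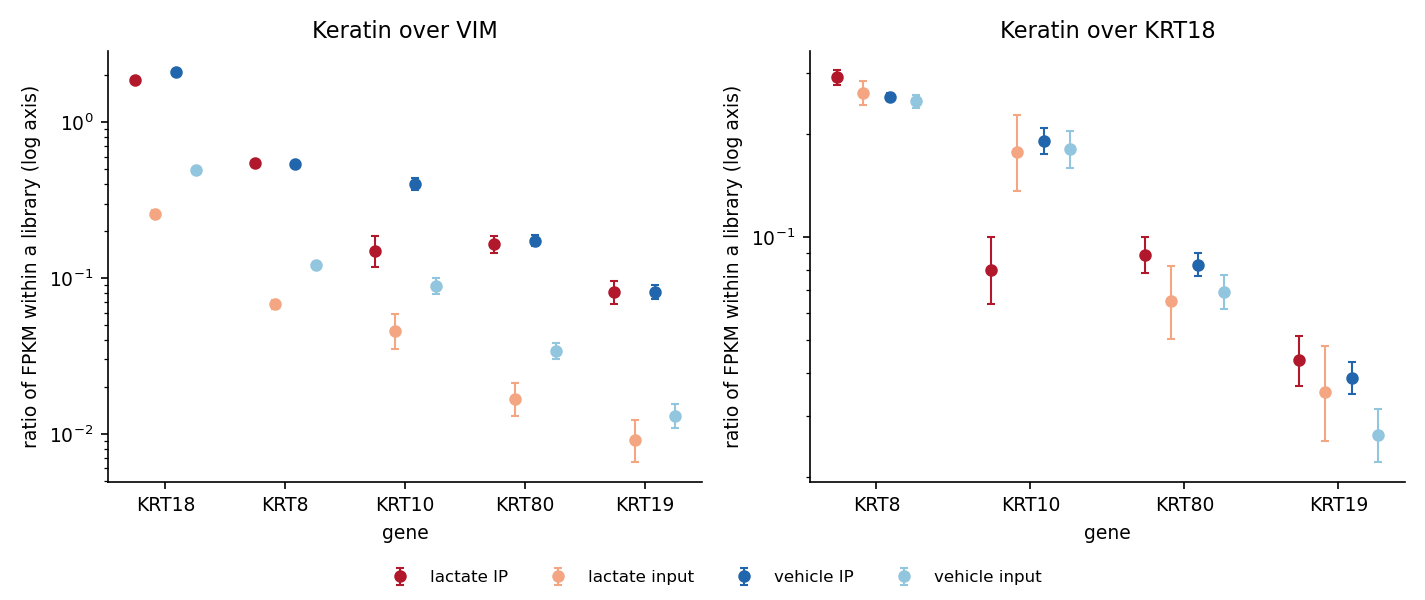
Ratio of each keratin to VIM (left) and to KRT18 (right) in FPKM within each library, on log axes, with 95% counting intervals; KRT7 is not drawn. Both IP libraries lie above their inputs for every keratin over VIM, and KRT10 over KRT18 is lower in the lactate IP (0.0801) than in the other 3 libraries (0.177 to 0.191).

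KRT10 departed from the other keratins in the lactate IP. It had 82 recovered reads there, against 65 in the lactate input, 548 in the vehicle IP and 267 in the vehicle input. Its ratio to KRT18 was 0.0801 (0.0636 to 0.0996) in the lactate IP and 0.177 (0.136 to 0.227) in the lactate input, against 0.191 (0.175 to 0.208) in the vehicle IP and 0.180 (0.159 to 0.204) in the vehicle input. The last 3 did not differ beyond counting error, and the lactate IP was lower than each of them. The IP over input quotient of this ratio was 0.452 (0.325 to 0.629) in lactate cells and 1.06 (0.911 to 1.23) in vehicle cells. The gene length recovered for KRT10 is 721 bases, shorter than its message, so its reads may be understated by a whole factor; its intervals would then be too wide, and its FPKM is not touched.

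Set directly against each other, the IP libraries gave lower values for each of the 6 measured members in lactate cells. On the log2 scale of FPKM + 1, the lactate IP over the vehicle IP was −2.74 for KRT10, −1.63 for KRT18, −1.46 for VIM, −1.44 for KRT80, −1.42 for KRT8, −1.28 for KRT19 and −0.41 for KRT7. The median of 8366 genes was −0.74, and the nuclear share of reads was 13.9% in the lactate IP and 30.3% in the vehicle IP. Past 2-fold were 0 of the 6 upward and 6 downward, against 1.64% upward and 27.7% downward over all genes. Relative to the median, KRT10 alone of the 6 was 2-fold away (−2.0), and over all genes 306 were higher and 218 lower in place of 137 and 2317. KRT10 lay at the 0.203rd percentile of all genes, and the other 5 between the 3.65th and 11.9th. Their median with KRT7 was −1.44. Without a pseudocount the median gene was lower, at −1.10, and most members lay closer to it. Relative to it, KRT10 gave −1.80 (−2.15 to −1.46), KRT18 −0.54 (−0.59 to −0.49) and KRT80 −0.45 (−0.65 to −0.25). VIM gave −0.37 (−0.43 to −0.32), KRT19 −0.37 (−0.66 to −0.09) and KRT8 −0.35 (−0.42 to −0.29). KRT7 gave −0.06 (−0.86 to 0.71). The percentiles use FPKM + 1, which pulls low genes toward 0.

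The difference in enrichment, lactate minus vehicle, on the log2 scale of FPKM + 1, was −1.46 for KRT10, −1.04 for VIM, −0.63 for KRT19, −0.30 for KRT18, −0.25 for KRT80, −0.22 for KRT8 and −0.05 for KRT7. The median of 9445 genes was −0.36. Past 2-fold were 0 of the 6 upward and 2 downward, against 3.04% upward and 9.56% downward over all genes, and of these 2 KRT10 (−1.11) remained 2-fold away once the median was subtracted. Over all genes that subtraction gave 483 higher and 310 lower in place of 287 and 903. With KRT7 the median of the group was −0.30. The differences of KRT8, KRT18 and KRT80 turned above 0 (0.31, 0.23 and 0.31) with median ratio scaling. Without a pseudocount and relative to the median gene, KRT10 gave −1.03 (−1.55 to −0.52) and VIM −0.56 (−0.63 to −0.50), both below 0. KRT8 gave 0.30 (0.18 to 0.42) and KRT18 0.20 (0.10 to 0.29), both above 0. KRT80 (0.39, −0.04 to 0.81), KRT19 (−0.05, −0.62 to 0.53) and KRT7 (1.79, −0.09 to 3.66) had intervals that hold the median gene. The 5 comparisons share libraries with one another, so their values are not independent.

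Over the input change and both enrichments, KRT8 and KRT18 were the closest members, with a Euclidean distance of 0.167 in log2(FPKM + 1) ratios. KRT80 lay 0.178 from KRT8, KRT10 lay 1.12 or more from every other member, and VIM 2.44 or more. Among 2795 protein-coding genes with enough reads, the genes nearest to KRT8 were SRPRB (0.0945) and PA2G4 (0.116), which were also the nearest to KRT18 (0.135 and 0.173). The nearest to VIM were RPL32 (0.0718) and CDC123 (0.0858), and the nearest to KRT19 were NABP2 (0.0716) and ECPAS (0.0907). KRT80 was nearest to GADD45GIP1 (0.25) and CTR9 (0.262), and KRT7 to POLR3GL (0.131) and SEMA4B (0.150). The KRT7 ratios depend on the added 1 FPKM, as its input change was −0.36 with it and −2.46 without. With 3 reads in the lactate input, KRT7 would itself miss the read limit set for its neighbours. Its distances therefore say little about its message. KRT10 had its nearest genes further off, ATP5F1E at 0.313 and ATP5ME at 0.511. The distances rest on 3 ratios from 4 libraries and describe likeness in these libraries alone.

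The deposited peak lists show where along the genes the IP signal lay. Each list sets an IP library against its own input, and the folds and q-values are those of the authors' peak caller. The lactate list of 48104 peaks held 11 for the 7 genes and the vehicle list of 95785 held 15. At a q of at most 0.05 there were 8 in the lactate list and 11 in the vehicle list. In the lactate list 5 of the 7 genes had such a peak, against 58.0% of all measured genes, and in the vehicle list 7 of 7, against 76.4%. KRT7 is among the 7 but, being below 1 FPKM, not among the genes of these shares. KRT7 (q = 0.165) and VIM (no peak) were the exceptions in the lactate list.

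Within 1000 bp of the gene's 3′ end lay the summits of 7 of the 11 lactate peaks and 6 of the 15 vehicle peaks. No such share was computed over all peaks, so these counts do not set the 7 genes apart from others. Distances here run along the genome, introns included. KRT8 had its peak of smallest q with a summit 166 bp from the gene's 3′ end in the lactate list (fold 3.94) and 164 bp from it in the vehicle list (fold 4.25). The KRT10 peak, annotated to the 3′ UTR, had its summit 118 bp from the end in the lactate list with a fold of 1.76, against 126 bp and a fold of 3.49 in the vehicle list. The KRT19 peak had a summit 182 bp from the end and a fold of 4.30 in the lactate list, against 132 bp and 6.11 in the vehicle list. These summits lay within 200 bp of the gene end in both lists. KRT80 had a pair of 3′ UTR peaks in each list, with folds of 3.57 (189 bp) and 3.04 (693 bp) in the lactate list and of 3.25 (140 bp) and 8.89 (701 bp) in the vehicle list. The last was the highest fold of the 7 genes, at the 94.5th percentile of its list.

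KRT18 had 2 peaks in the lactate list, with folds of 3.40 (580 bp from the end) and 1.84 (117 bp), where the vehicle list had 1 peak of 1488 bp that spanned both (fold 2.85, summit at 120 bp). The KRT7 peak lay 7.06 kb from the end of the annotated gene span in the lactate list (fold 2.99) and 7.09 kb in the vehicle list (fold 3.38). Ends of single transcripts were not examined, so its distance from the end of a shorter KRT7 transcript is not known here. VIM had no lactate peak and 1 exon peak in the vehicle list, with a fold of 1.99, a summit 2.23 kb from the 3′ end and a place at the 18.2nd percentile of folds. Another KRT80 region, near the start of the gene and 22.8 kb from its 3′ end, was listed in the vehicle cells with a fold of 4.25. KRT8 also had an exon peak at 1.51 kb from its end in the lactate list (fold 1.73, q = 0.167) and at 1.46 kb in the vehicle list (fold 3.91). The remaining KRT8 peaks, 2 in the lactate list and 5 in the vehicle list, were intronic and 20.5 to 45.4 kb from the 3′ end, and 1 in each list had a q of at most 0.05. That of the lactate list, 33.6 kb from the end, had a fold of 4.54, and that of the vehicle list, at 45.4 kb, a fold of 4.25. These intron folds rest on few reads. In the authors' deposited table, the normalized read density there was 6.81 in the lactate IP and 3.93 in the vehicle IP, in that order. At the 3′ peak it was 1356 and 1182.

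**Figure D4:**
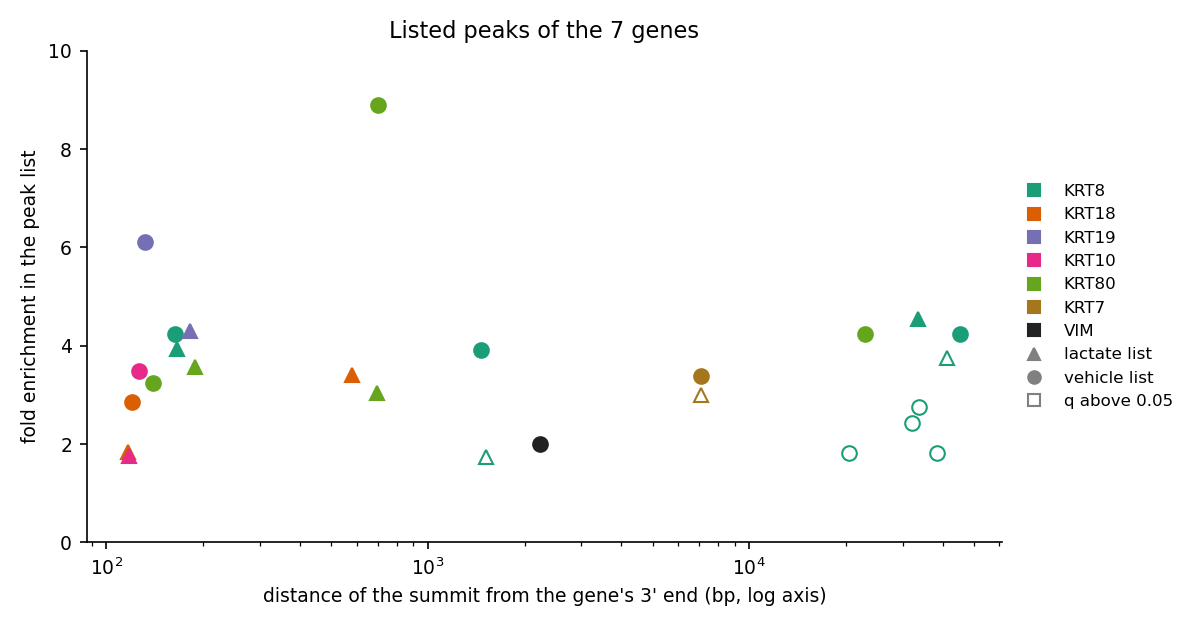
Fold enrichment of each listed peak of the 7 genes against the distance of its summit from the gene's 3′ end in bp (log axis), with triangles for the lactate list, circles for the vehicle list, and open symbols for q above 0.05. KRT8, KRT10, KRT18, KRT19 and KRT80 each have a peak within 200 bp of the end in both lists, and the highest point is KRT80 in the vehicle list (fold 8.89).

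Of the lactate peaks of the 7 genes, 10 of 11 (90.9%) overlapped a vehicle peak by at least 1 base, against 56.4% of all lactate peaks. Of the vehicle peaks, 9 of 15 (60%) overlapped a lactate peak, against 27.8% of all vehicle peaks. The median fold was 3.40 in the lactate list and 3.38 in the vehicle list, against 3.24 and 3.03 over all peaks of those lists. By annotation the lactate peaks were 3 in a 3′ UTR, 6 in exons and 2 in introns, and the vehicle peaks were 3, 7 and 5 in the same order. Introns held 18.2% of the lactate peaks and 33.3% of the vehicle peaks of these genes, against 57.7% and 56.1% of all peaks. Pseudogenes of KRT8 had 3 peaks in the lactate list and 8 in the vehicle list, and those of KRT18 had 4 and 16 in the same order.

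The IP libraries were also set against each other peak by peak in the authors' deposited table, whose M is the log2 ratio of a normalized read density in the lactate IP over the vehicle IP. The lowest exon or UTR value shared by both lists was at KRT10, where the authors' deposited table gave an M of −1.46, from densities of 140 in the lactate IP and 387 in the vehicle IP. For the 3′ end of KRT8 the authors' deposited table gave 0.20 (1356 and 1182), and for KRT18 it gave 0.12 (2455 and 2254). For KRT19 the authors' deposited table gave −0.57 (62.4 and 92.7), for the second KRT8 exon peak −0.19, for both KRT80 UTR peaks −0.35 and for KRT7 −0.75 (9.81 and 16.5). At the VIM region, which is listed as a peak of the vehicle IP alone, the authors' deposited table gave 0.03 from densities of 483 and 474. The density at VIM was thus nearly equal in the IP libraries although a peak was listed in 1 of them.

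Over the 16 regions of the 7 genes the median M in the authors' deposited table was −0.46, against −0.50 over all 116484 regions. Over the 8 exon or UTR regions found in both lists it was −0.35, against 0.00 (0.00325) over all 26381 shared regions in the authors' deposited table. Those shared regions were of any annotation, not exons and UTRs alone, so these medians do not set like against like. The densities at intron regions of KRT8 were at most 6.81, so their M values rest on few reads. M and the gene ratios were normalized differently, and their sizes are not compared here. Over the exon and UTR regions found in both lists KRT10 had the lowest value of the 6 keratins, as it did in the gene ratio of the IP libraries.

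Other filament genes and partners were read from lists chosen, like the members, with earlier results of these data known. All list ratios and counts below use FPKM + 1, which pulls genes near or below 1 FPKM toward 0. No list ratio was computed without a pseudocount. None of the 12 other keratin genes in the table reached 1 FPKM, and the highest was KRT81 at 0.232 to 0.512 FPKM. Among the other intermediate filament genes, LMNA, which encodes lamin A and C of the nuclear envelope, gave 1.26 in the lactate IP over its input and 1.74 in the vehicle IP over its input. The lowest of that list were LMNB2 (0.85) in lactate cells and BFSP1 (0.30) in vehicle cells. At least 2-fold higher were 1 of 2 measured genes of the list in lactate cells and 2 of 5 in vehicle cells, with 0 lower. Over all genes 16.0% and 27.6% were higher, and 23.3% and 15.3% lower, in the same order. So few genes cannot be set apart from these shares.

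The proteins of some, but not all, of the listed cytolinker, desmosome and hemidesmosome genes anchor keratin filaments. At least 2-fold higher in the IP were 3 of 12 measured genes in lactate cells and 7 of 14 in vehicle cells. Over all genes the shares were 16.0% and 27.6%. In each condition 1 gene was at least 2-fold lower, the desmosomal cadherin DSG2, at −1.35 in lactate cells and −1.39 in vehicle cells. The highest were PKP3, a plakophilin of desmosomal plaques, at 1.31 in lactate cells, and DSP, the desmoplakin that ties keratins to desmosomes, at 2.03 in vehicle cells. The list had a median of 0.44 in lactate cells and 0.99 in vehicle cells, against −0.10 and 0.44 over all genes.

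The 14-3-3 genes encode phosphoprotein-binding adaptors, some of which bind keratins or vimentin. SFN was the highest, at 2.03 in lactate cells and 1.81 in vehicle cells, and YWHAZ the lowest, at −2.52 and −2.28 in the same order. The other 5 of the 7 stayed within 2-fold in both. Over all genes, 16.0% were 2-fold higher and 23.3% lower in the lactate IP than in its input, and 27.6% and 15.3% in the vehicle IP than in its input, which is the background for the 14-3-3 counts and for those that follow. Of the epithelial genes, 0 of 6 measured were at least 2-fold higher and 1 lower in lactate cells, against 2 and 1 of 7 in vehicle cells. CLDN1, a tight-junction claudin, was the lowest in both, at −2.74 in lactate cells and −1.79 in vehicle cells. The highest epithelial genes were CLDN4 (0.79) in lactate cells and MUC1 (1.37) in vehicle cells. Of the mesenchymal genes, 0 of 9 were at least 2-fold higher and 1 lower in lactate cells, against 3 and 0 of 8 in vehicle cells. AXL was the highest in lactate cells (0.94) and TGFBI, a secreted matrix protein, the highest in vehicle cells (2.08). S100A4, a calcium-binding protein, was the lowest in both (−1.25 in lactate cells and −0.85 in vehicle cells).

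Between the IP libraries, lactate over vehicle, 0 genes of these lists were at least 2-fold higher, beside 1.64% of all genes, and 27.7% of all genes were at least 2-fold lower. In the lists, at least 2-fold lower were 0 of 5 other filament genes (BFSP1 −0.32 to LMNB1 −0.94), 4 of 14 junction genes (PKP3 0.17 to KTN1 −1.30) and 2 of 7 14-3-3 genes (SFN −0.50 to YWHAE −1.54). Among epithelial genes 1 of 6 was (CLDN4 −0.24 to CLDN1 −1.72), and among mesenchymal genes 1 of 9 (TWIST2 0.37 to TGFBI −1.81). The member values given above, −1.28 to −2.74 for the 6 measured, lay in the lower part of these ranges or below them. The added 1 FPKM narrows the ranges of low genes more than the values of abundant members. LMNB1 had 0.236 FPKM in the lactate IP and 1.37 in the vehicle IP, and SYNM 0.550 and 1.62. Both count as within 2-fold only because of the added 1, so members and lists are not set like against like.

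In the inputs, no measured gene of these lists was 2-fold apart between lactate and vehicle cells on the scale of FPKM + 1. SFN, at 1.09 FPKM in the lactate input and 2.43 in the vehicle input, stayed within 2-fold only because of the added 1. Measured there were 2 other filament genes, 8 junction genes, 7 14-3-3 genes, 5 epithelial genes and 8 mesenchymal genes. The background shares were 1.76% upward and 6.46% downward, and lists this small cannot be told apart from them. The list medians of the lactate input over the vehicle input were −0.36 for the other filament genes, −0.36 for the cytolinkers and junction genes, −0.71 for the 14-3-3 genes, −0.24 for the epithelial genes and −0.31 for the mesenchymal genes. The median gene was at −0.43 and the 7 members at −1.20.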

How the data were processed

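RNA from 4 libraries of PANC-1 cells was analysed (lactate IP, lactate input, vehicle IP and vehicle input), 1 per group. The submitters' processing notes list MACS2 2.2.7.1, HISAT2 2.1.0 and fastp 0.20.1, beside HOMER 4.11.1, DiffBind and bedtools 2.29.2, on GRCh38. Read counting, its strand setting and its rule for multiple matches are not given in the labels or file headers. Gene levels were deposited by the authors as FPKM, with no rescaling between libraries seen in the values. Their peak lists hold, per the file headers, a fold enrichment (ratio) of each IP library over its own input, with the q-value, the p-value and the −log10 of both. The deposited comparison of the IP libraries holds a normalized read density (signal) per library, and M and A on the log2 scale, per the file headers. Its P column was not used, since its values are not tail probabilities.

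The whole reads underlying each FPKM were worked out from ratios between libraries, and this recovery was tested on simulated data. Of 72387 values above 0, 99.99% were whole within 1e-06 reads. A factor common to a gene's 4 values is lost, and a gene's reads can then be understated. Ratios are log2 of FPKM + 1, over genes with an FPKM of at least 1 in at least 1 compared library, and a change of at least 2-fold was counted. Intervals at 95% are exact intervals on recovered reads without a pseudocount, and the normal approximation on the log scale for quotients of ratios. The SMART-Seq v4 kit adds no molecular identifiers, so reads are not independent molecules.

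All 7 members were named, with the highest and lowest measured gene of each list per comparison of IP with input and the 2 genes nearest to each member. The members and lists were chosen with earlier results of these data known. Peak sequences were planned but need a genome, which was not used here, and the promoters were chosen after the files were seen. Alternatives were other pseudocounts, scalings and filters, pseudogene reads added, and stricter peaks. Python 3.11.15 with numpy 2.4.6, pandas 2.3.3, scipy 1.17.1 and matplotlib 3.10.9 was used.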

Additional observations from a re-analysis of the deposited data

Results flagged for a closer look

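KRT10 showed no clear enrichment in the IP of lactate cells and was enriched in that of vehicle cells. Its log2 ratio of IP over input, as FPKM + 1, was −0.10 in lactate cells and 1.37 in vehicle cells. With 1 library per group this difference was not tested. With libraries scaled to equal nuclear totals, the lactate value was 0.44, and the sign of the lactate value is not settled: its ratio without a pseudocount was −0.11 with a counting interval of −0.59 to 0.38, which holds 0. The ratio of KRT10 to KRT18 within a library does not depend on this scaling.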

How the results depend on the processing

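No paired analysis was possible because each group holds 1 library. Leaving out a library was not possible for the same reason. Of 210 recomputed values of single genes, 150 moved by less than their counting error, 60 by more, and 0 that were counted as 2-fold changed turned sign.

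Scaling by the median ratio over genes and scaling to equal nuclear totals brought the median of all genes between the inputs to 0.00 and −0.01. The median of the 7 genes there became −0.64 and −0.65, with 0 of them past 2-fold in each case in place of 4. Between the IP libraries it became −0.35 with both, with 1 past 2-fold in place of 6. For the difference in enrichment it became 0.23 with both, the opposite sign, with 0 past 2-fold in place of 2. For vehicle enrichment the median ratio gave 1.08, and for lactate enrichment equal nuclear totals gave 1.49. VIM between the inputs turned to 0.17 and 0.15, and the enrichment differences of KRT8, KRT18 and KRT80 turned above 0.

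A pseudocount of 5 FPKM gave −0.72 between the inputs, 1.17 for vehicle enrichment, 0.46 for lactate enrichment and −0.42 for the difference in enrichment. The counts past 2-fold were then 1 between the inputs, 1 for lactate enrichment and 1 for the difference. Without VIM, the count for the difference was 1.

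With FPKM of at least 5 required, 238 genes in place of 556 passed 2-fold between the inputs, 2093 in place of 3901 in vehicle enrichment, 1348 in place of 2818 in lactate enrichment, 1485 in place of 2454 between the IP libraries and 433 in place of 1190 in the difference, from fewer genes tested. The counts of peaks, their overlap and the median M of the authors' deposited table moved little under the alternatives run. KRT7 is limited by depth, with 3 reads in the lactate input.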
